A study of Mus musculus with 10 samples.

Results

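Genes of integrins, cadherins and the ligands that leukocytes use to attach to other cells were examined in cultures labelled as Hepa1-6, a mouse hepatoma line, before and after contact with activated T cells. Members were chosen by gene symbol in the deposited table: integrin alpha genes Itga followed by a number (with Itga2b), and Itgad, Itgae, Itgal and Itgav; the integrin beta genes Itgb1 to Itgb8; all numbered cadherin genes except Cdh1 and Cdh2; the numbered Icam genes; and Vcam1, Alcam, F11r and Ceacam1. The rule found 53 genes of 34745 in the table, namely 24 integrin subunits, 21 cadherins and 8 adhesion ligands of the immunoglobulin family. Of the 10 RNA sequencing libraries, 5 came from untreated Hepa1-6 cells and 5 from Hepa1-6 cells after 48 h of co-culture. The added cells were mouse splenic CD8+ T cells that anti-CD3 and anti-CD28 antibodies had stimulated over the preceding 5 days. All cells are labelled wild type. Suspended cells and debris were rinsed off before RNA extraction, per the labels. The labels do not say whether each library is a culture of its own, and the p-values therefore reflect the spread between libraries alone, which may be technical.

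Integrins are receptors made of 1 alpha and 1 beta chain that hold cells to the extracellular matrix or to other cells. Which alpha chain meets which beta chain is fixed to a large extent: many alpha chains pair with the beta1 chain alone, the beta2 chain belongs to leukocytes, and the beta7 chain pairs with alpha4 or alphaE on lymphocytes that home to the gut. Cadherins bind to cadherins on neighbouring cells and depend on calcium. Icam1, Vcam1 and their relatives are membrane proteins to which leukocyte integrins bind, and Icam1 on a target cell helps a CD8+ T cell to adhere to it.

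Library totals ran from 12922263 to 17100662 counts. The labelled cell type was checked against 10 genes of hepatocytes and hepatoma cells. Krt8, a keratin of simple epithelia, fell from 1116 ± 90.5 to 938 ± 63.1 CPM (the count scaled to a common library size; n = 5, adjusted p = 0.0079 with edgeR), and its partner Krt18 was at 497 ± 33.7 and 482 ± 42.4 CPM and was not called. Afp, the fetal albumin-like protein, had 1525 and 1162 summed counts and fell by 0.36 on the log2 scale (adjusted p = 0.004 with edgeR). Trf, the iron carrier transferrin, had 2 and 274 summed counts, and it passed the count filter through the co-culture libraries alone. Alb and Hnf4a had 0 counts in the untreated libraries and 4 and 1 counts over the co-culture libraries, and Apob, Apoa1 and Ttr also had fewer than 10 counts over all 10 libraries. The summed level of these 10 genes was 1476 to 1782 CPM in untreated and 1345 to 1601 CPM in co-culture libraries. That of 7 fibroblast markers was higher, at 2245 to 2401 and 2030 to 2107 CPM. Most of it came from the collagen gene Col3a1, at 2249 ± 57.5 and 1990 ± 30.1 CPM (n = 5). Of 13 T cell markers, 11 had fewer than 10 counts over the 10 libraries, and Cd3e, Cd3d, Cd8a, Cd2 and Prf1 had 0. Of 8 tested macrophage markers, Adgre1 and Tyrobp passed the count filter through the co-culture libraries alone. Of the other 6, 4 rose and none fell, beside 17.4% of all tested genes called higher. Cd68 at 25.1 ± 2.83 and 25.1 ± 1.51 CPM and Mpeg1 at 3.89 ± 1.04 and 3.77 ± 0.32 CPM were not called (n = 5). The summed level of the 13 markers was 82.7 to 89.5 CPM in untreated and 124 to 140 CPM in co-culture libraries. Most of the untreated sum came from Cd68, Cd14 and Mertk. Lyz2, the lysozyme of macrophages, went from 0.931 ± 0.25 to 18.2 ± 2.15 CPM and Tyrobp, an adaptor of myeloid receptors, from 0 to 84 summed counts (n = 5). C1qa and C1qb had 0 counts in untreated libraries and means of 0.188 and 0.259 CPM after co-culture, and were too low to test. All CPM in comparisons are scaled by the trimmed mean of M-values (TMM), and values with ± are means with the SD over libraries unless SE is named. In bulk RNA, a changed number of cells of a type and a changed amount of RNA per cell cannot be told apart.

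After co-culture, the ligand genes Icam1, Icam4, Icam5 and Vcam1, the cadherin gene Cdh13 and the integrin gene Itga7 rose. Itgb7, Itgb2, Itga6, Itgb3 and F11r fell. The abundant subunit genes Itga3, Itga5 and Itgb5 did not pass the test. Of the 53 genes, 27 had enough counts to be tested, and 9 of these rose and 5 fell (edgeR quasi-likelihood test, Benjamini-Hochberg adjusted p below 0.05 over 12666 genes). Of all tested genes, 33.5% were called, 17.4% higher and 16.1% lower. Itgb1 passed the count filter through the co-culture libraries alone. Among the other 26 genes, 8 rose and 5 fell, which is 50.0%, beside 33.2% of the 12604 genes that passed in the same way, and their median log2 fold change was -0.03 beside 0.01. Changes of at least 2-fold were made by Itgb1, Icam1, Icam4, Icam5 and Itgb7, and without Itgb1 by 4 of the 26 genes. Of all tested genes, 2.77% were called with a change of that size. The groups did not overlap in 12 of the 27 genes, with co-culture above in 7 and below in 5. Itgb1 is counted among the 7, though it passed the filter through co-culture alone. Of all tested genes, 12.6% lay above and 11.1% below in this sense.

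**Figure D1:**
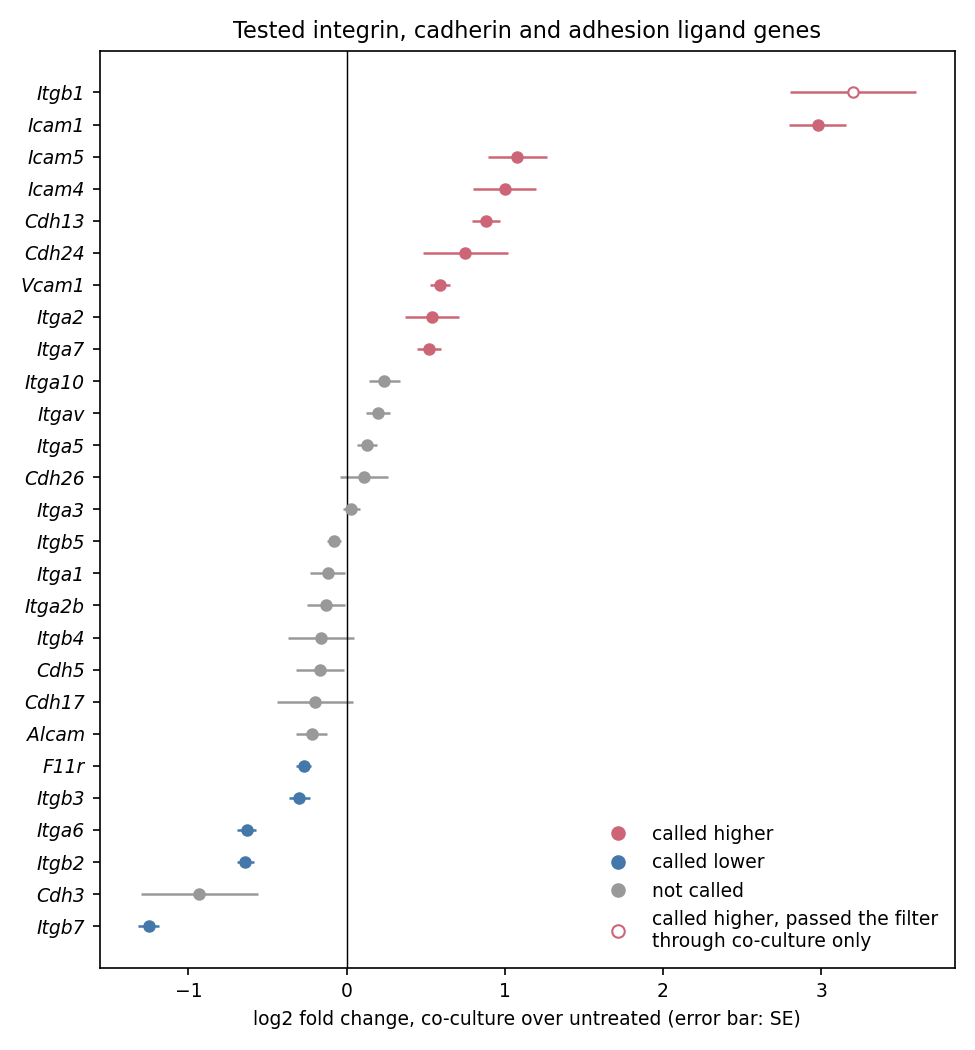
Log2 fold change (co-culture over untreated, error bar SE) of the 27 tested genes, coloured by the call at an adjusted p of 0.05. Itgb1 (open circle) and Icam1 lie near 3, Itgb7 is the lowest called gene at -1.25, and 13 genes were not called.

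Levels of different genes were compared in the deposited FPKM, which divide the counts by gene length. In untreated cells Itgb7 had the highest level of the 24 integrin genes at 93.1 ± 7.28 FPKM, followed by Itga5 at 79.7 ± 5.81, Itga3 at 65.6 ± 4.88, Itgb5 at 47.5 ± 2.22, Itgb2 at 37.2 ± 2.04 and Itga6 at 15.9 ± 1.52 FPKM (n = 5). The libraries of Itgb7 and Itga5 overlapped, with Itgb7 between 84.3 and 103 FPKM and Itga5 between 74.3 and 89.2 FPKM, whereas none of the later neighbours down to Itgav overlapped. Itgav, Itga7 and Itgb3 formed a group at 7.94, 6.46 and 5.79 FPKM, in which neighbours overlapped. After co-culture the order changed at the top, to Itga5 at 89.5 ± 5.83, Itga3 at 68.7 ± 1.09, Itgb5 at 46.1 ± 1.76, Itgb7 at 40.1 ± 2.29 and Itgb2 at 24.4 ± 1.05 FPKM (n = 5), and none of these neighbours overlapped.

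The deposited values of partner chains were far apart. Itgb1, the common beta chain of matrix receptors, had between 0 and 0.0262 FPKM in untreated libraries. Whether these low values reflect the RNA of the cells or the counting of this gene was not tested, and its transcripts were not measured in another way. The 9 alpha genes whose products pair with beta1 alone (Itga1, Itga2, Itga3, Itga5, Itga7, Itga8, Itga9, Itga10 and Itga11) summed to 147 to 173 FPKM in the same libraries. After co-culture Itgb1 reached 0.136 to 0.187 FPKM and the sum of these alpha genes was 164 to 179 FPKM. The same mismatch ran the other way for leukocyte chains. Itgb7 stood at 84.3 FPKM or more in untreated libraries, while its partners Itga4 and Itgae together had 0.0158 to 0.124 FPKM. Itgb2 stood at 33.6 to 38.4 FPKM in untreated libraries, while its partners Itgal and Itgad together had at most 0.0194 FPKM. After co-culture Itgb2 stood at 23.2 to 25.9 FPKM and these partners at most at 0.0561 FPKM. Of the remaining beta2 partners, which lie outside the rule, Itgam had 2 and 128 summed counts over its 2 identifiers and Itgax 1 and 6. The alphaV chain had partners in range, with Itgav at 7.94 ± 0.86 FPKM and its partners Itgb5 and Itgb3 at 47.5 and 5.79 FPKM in untreated cells. These are RNA levels, and protein chains at the cell surface were not measured.

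**Figure D2:**
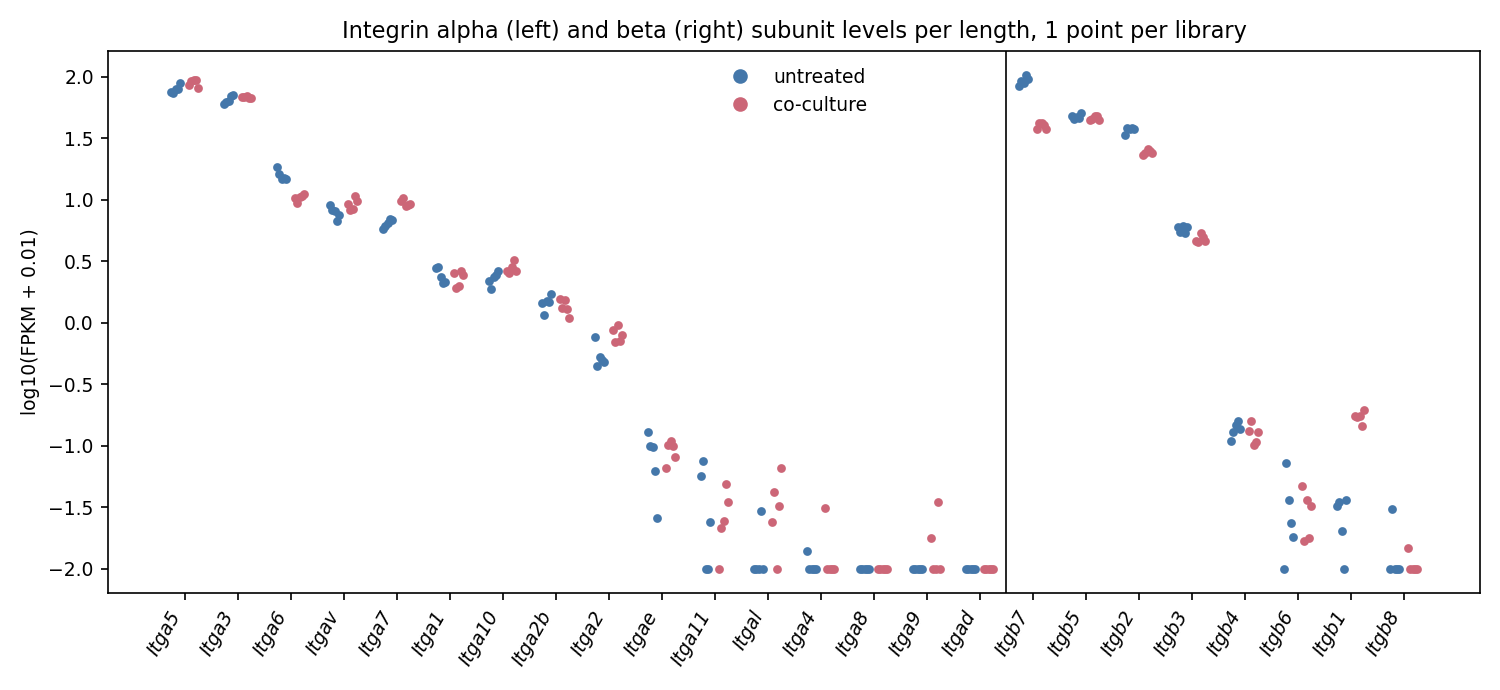
Log10(FPKM + 0.01) of the 24 integrin genes, with 1 point per library, alpha genes left of the line and beta genes right of it, each ordered by the untreated mean. Itga5 and Itga3 lead the alpha genes, Itgb7, Itgb5 and Itgb2 the beta genes, and Itgb1 is at or below 0.187 FPKM in every library.

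Of the 3 laminin-binding alpha chains, 1 fell, 1 rose and 1 did not pass. Among all 9 tested alpha genes 33.3% were called, beside 33.5% of all tested genes. Itga6, which pairs with beta1 or beta4 and sits in hemidesmosomes, was at 226, 201, 185, 192 and 184 CPM in the untreated libraries and at 126, 118, 129, 129 and 135 CPM in the co-culture libraries. The groups did not overlap, and the log2 fold change was -0.63 ± 0.0606 (SE, edgeR adjusted p = 5.07e-06). Itga7, the laminin receptor chain of muscle, was at 23.3, 24.8, 26.5, 28.9 and 27.8 CPM in untreated and 38.6, 41.9, 35.3, 35.5 and 36.7 CPM in co-culture libraries. It rose by 0.52 ± 0.0763 (SE, edgeR adjusted p = 0.000185) on the log2 scale, with no overlap. Itga3 was at 448 ± 37.3 and 459 ± 11.9 CPM (n = 5, log2 change 0.03 ± 0.055 SE, adjusted p = 0.686 with edgeR). Itgb4, the beta chain that joins alpha6 in hemidesmosomes, was at 1.2 ± 0.189 and 1.07 ± 0.225 CPM and was not called (n = 5, edgeR adjusted p = 0.629).

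RGD-binding alpha chains recognise the arginine-glycine-aspartate motif of fibronectin and vitronectin. None of the 3 tested passed with edgeR and TMM scaling at an adjusted p of 0.05, beside 33.5% of all tested genes. Itga5, the fibronectin receptor chain, was at 353 ± 28.1 and 388 ± 27.7 CPM (n = 5, edgeR adjusted p = 0.122), Itgav at 111 ± 11 and 127 ± 12 CPM (n = 5, edgeR adjusted p = 0.0666) and the platelet chain gene Itga2b at 11.9 ± 1.67 and 10.9 ± 1.56 CPM (n = 5, edgeR adjusted p = 0.455). Itga5 and Itgav were called higher when library totals alone were used for scaling (edgeR adjusted p of 0.0487 for Itgav), and Itga5 also with limma on FPKM. Among collagen-binding chains, Itga2 was at 3.18, 1.84, 2.2, 2.12 and 2.03 CPM in untreated and at 3.58, 2.95, 3.99, 2.88 and 3.24 CPM in co-culture libraries. It rose by 0.54 ± 0.171 (SE, edgeR adjusted p = 0.0276) on the log2 scale, but untreated replicate 1 overlapped the co-culture range, and dropping single libraries removed the call in 6 of 10 fits (edgeR adjusted p from 0.00576 to 0.0704). Itga1 and Itga10 were at 14.8 ± 1.93 and 16.7 ± 2.15 CPM in untreated and 13.6 ± 1.78 and 19.7 ± 1.96 CPM in co-cultured cells and were not called (n = 5, edgeR adjusted p = 0.454 and 0.0802). Both share part of their exons with another annotated gene on the same strand, so their counts are uncertain.

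Of the 6 tested beta genes, 3 fell, 1 rose and 2 did not pass. The shares over all tested genes were 16.1% lower and 17.4% higher. The gene that rose, Itgb1, passed the count filter through the co-culture libraries alone. Among the other 5 beta genes, 3 fell and none rose. Itgb7 (chromosome 15, 102215995 to 102231935 in mm10) was at 235, 258, 253, 295 and 275 CPM in the untreated libraries and at 103, 119, 117, 112 and 103 CPM after co-culture. All co-culture libraries lay below all untreated ones, and the level was 2.37-fold lower (log2 change -1.25 ± 0.0657 SE, adjusted p = 2.27e-08 with edgeR). Itgb2 (chromosome 10, 77530252 to 77565708) was at 156, 180, 180, 183 and 179 CPM and at 106, 113, 120, 114 and 109 CPM. It was 1.56-fold lower without overlap (log2 change -0.64 ± 0.0525 SE, adjusted p = 1.21e-06 with edgeR). Both are known as leukocyte chains. In the same libraries the macrophage markers Lyz2 and Tyrobp and the pan-leukocyte gene Laptm5 rose, the last from 5 to 207 summed counts. The macrophage markers Cd68 and Mpeg1 were not called. Tyrobp and Laptm5 passed the count filter through the co-culture libraries alone. Which cells the Itgb7 and Itgb2 transcripts came from was not tested. Of the 5 pan-leukocyte markers, the summed counts in untreated and co-culture libraries were 6 and 40 for Ptprc, 349 and 516 for Coro1a, 75 and 212 for Cd53 and 0 and 33 for Cd52, and the summed level of the 5 was 5.17 to 7.06 CPM in untreated and 11.6 to 14.6 CPM in co-culture libraries.

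Itgb3, the beta chain of the vitronectin receptor and of the platelet fibrinogen receptor, was at 51.8, 47.1, 53.8, 47.2 and 53.2 CPM in untreated and at 39.1, 40.0, 46.1, 41.8 and 39.1 CPM in co-culture libraries, a fall of 0.30 on the log2 scale with no overlap (SE 0.0666, edgeR adjusted p = 0.00388). Itgb5, the other main partner of alphaV, was at 222 ± 11 and 210 ± 8.04 CPM and was not called (n = 5, edgeR adjusted p = 0.225). Within the summed FPKM of the 8 beta genes, Itgb7 made up 49.0% to 53.4% in untreated and 33.9% to 36.1% in co-culture libraries. The share of Itgb5 was 23.9% to 27.9% and 39.0% to 40.4%, and that of Itgb2 19.5% to 21.2% and 20.7% to 21.5%. Shares add up to a fixed total, so a lower share of Itgb7 raises the others.

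**Figure D3:**
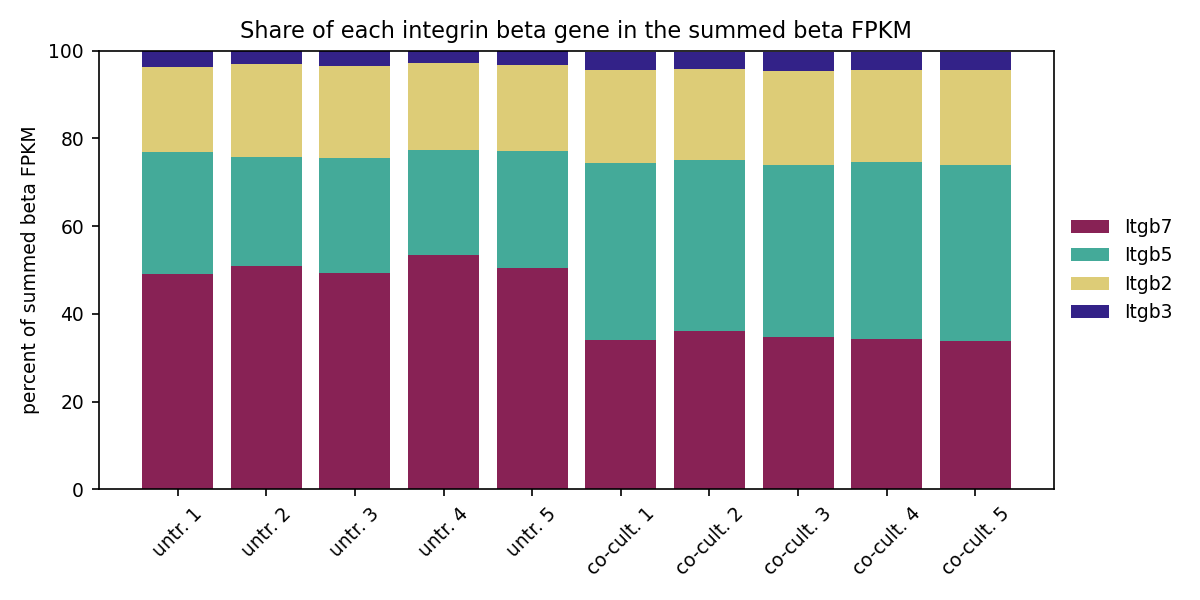
Percent of the summed FPKM of the 8 integrin beta genes held by Itgb7, Itgb5, Itgb2 and Itgb3 in each library. Itgb7 holds 49.0% to 53.4% in untreated and 33.9% to 36.1% in co-culture libraries, and the other 4 beta genes are too low to see.

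Itgb1 (chromosome 8, 128685654 to 128733200) had 2, 2, 1, 0 and 2 counts in the untreated libraries and 14, 15, 12, 11 and 16 counts after co-culture, with no overlap between the groups. In TMM-scaled CPM it went from 0.0952 ± 0.064 to 0.908 ± 0.101 (n = 5, log2 change 3.2 ± 0.399 SE, adjusted p = 4.87e-05 with edgeR). It passed the count filter only through the group in which it is high, and with so few counts in a gene that most adherent cells use, an effect of the counting on its values was not tested. The macrophage gene Adgre1 rose beside it from 12 to 276 summed counts and the pan-leukocyte gene Laptm5 from 5 to 207. Cd68 and Mpeg1, of the same macrophage list, were not called. Adgre1 and Laptm5 also passed the count filter through the co-culture libraries alone, and their part in the rise of Itgb1 was not tested.

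Of the 6 tested immunoglobulin-family ligands, 4 rose and 1 fell, beside 17.4% and 16.1% of all tested genes, and whether they differ in this from the integrins or cadherins was not tested. Icam1, the ligand of the beta2 integrins alphaL-beta2 and alphaM-beta2, was at 0.685, 0.918, 0.475, 0.812 and 1.05 CPM in the untreated libraries and at 6.18, 6.20, 5.44, 5.75 and 7.20 CPM in the co-culture libraries. Its groups lay far apart, with a 7.86-fold higher level after co-culture (log2 change 2.98 ± 0.18 SE, adjusted p = 7.49e-08 with edgeR). Icam4, known as a red cell adhesion protein, was at 1.18, 0.988, 1.37, 1.00 and 1.36 CPM and at 2.73, 2.88, 1.99, 2.53 and 1.69 CPM (log2 change 1.00 ± 0.199 SE, adjusted p = 0.00175 with edgeR). Icam5, known from neurons of the forebrain, was at 1.06, 0.988, 1.01, 1.19 and 0.678 CPM and at 1.89, 2.27, 2.38, 2.26 and 1.75 CPM (log2 change 1.08 ± 0.187 SE, adjusted p = 0.000653 with edgeR). In neither gene did the groups overlap.

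Icam1, Icam4 and Icam5 lie side by side on the same strand within 23077 bases of chromosome 9, and 575 bases separate Icam1 from Icam4 and 1506 bases Icam4 from Icam5 in the deposited positions. An antisense gene in GENCODE M21, Gm47079, covers all 1110 exon bases of Icam4 and 511 and 116 exon bases of Icam1 and Icam5. Whether counting used strand is not given in the sources used here, so reads of Icam4 cannot be told apart from reads of that gene. Some macrophage markers rose along with the 3 Icam genes, Lyz2 by 4.27 on the log2 scale, while Cd68 and Mpeg1 were not called. The part of macrophages in the rises of the Icam genes was not tested.

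Bases directly upstream of these 3 neighbours are shown because the genes moved together, and those of Itgb7 because it fell most. Sequences are from RefSeq on GRCm38.p6, read 5′ to 3′ on the strand of the gene, in the windows chr9:21015690-21015939, chr9:21029182-21029372, chr9:21031788-21032037 and, on the minus strand, chr15:102231945-102232185. Capitals mark matches to a short NF-kappaB motif, GGAANNTCC, or to the STAT-type motif TTCNNNGAA.
Icam1: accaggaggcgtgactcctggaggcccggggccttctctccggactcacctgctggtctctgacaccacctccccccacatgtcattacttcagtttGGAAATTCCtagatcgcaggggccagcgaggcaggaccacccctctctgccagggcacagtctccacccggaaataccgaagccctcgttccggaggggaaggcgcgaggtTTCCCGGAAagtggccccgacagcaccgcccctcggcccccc
Icam4: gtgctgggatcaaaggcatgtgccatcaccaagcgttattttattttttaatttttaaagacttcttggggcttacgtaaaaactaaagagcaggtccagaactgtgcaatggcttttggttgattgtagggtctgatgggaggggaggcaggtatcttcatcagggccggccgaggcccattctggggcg
Icam5: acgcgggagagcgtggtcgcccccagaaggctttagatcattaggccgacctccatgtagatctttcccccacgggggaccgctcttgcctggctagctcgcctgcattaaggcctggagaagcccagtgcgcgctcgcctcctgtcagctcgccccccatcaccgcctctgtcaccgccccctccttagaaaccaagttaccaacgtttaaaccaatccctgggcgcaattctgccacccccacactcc
Itgb7: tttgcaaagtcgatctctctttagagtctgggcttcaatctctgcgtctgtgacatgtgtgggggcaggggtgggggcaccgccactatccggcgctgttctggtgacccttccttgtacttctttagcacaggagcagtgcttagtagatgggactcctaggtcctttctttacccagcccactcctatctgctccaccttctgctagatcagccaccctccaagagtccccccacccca
Both strands of the 250 bases before each RefSeq start were searched, of which 191 are printed for Icam4 and 241 for Itgb7. The searched bases not printed lie past the gene start in the deposited positions or in GENCODE M21. Icam1 held 1 match to the short NF-kappaB motif, GGAAATTCC, and 1 to the STAT-type motif, TTCCCGGAA, which begin at positions -153 and -42 from the start, and these do not overlap. Of 32851 promoters, 3.59% held the short NF-kappaB motif and 7.02% the STAT-type motif. The AP-1 motif TGANTCA, found in 6.75% of promoters, and the 10-base NF-kappaB consensus, found in 9.55%, had no match in these 4 windows. The short motif was added after the consensus had given no match. The Icam4, Icam5 and Itgb7 windows held none of the 4 motifs, which says only that these letters are not in these windows.

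Vcam1, the ligand of the alpha4 integrins, was at 208, 230, 194, 190 and 177 CPM in untreated libraries and at 309, 305, 278, 308 and 301 CPM after co-culture, 1.5-fold higher without overlap (log2 change 0.59 ± 0.0641 SE, adjusted p = 1.52e-05 with edgeR). Per length, Vcam1 was at 20.4 FPKM in untreated and 31.4 FPKM in co-cultured cells, and F11r at 22.9 and 19.4 FPKM. F11r, which encodes the tight junction protein JAM-A, was at 78.6, 90.3, 81.3, 84.2 and 85.9 CPM in untreated and at 68.1, 68.7, 70.0, 72.5 and 69.0 CPM in co-culture libraries. This fall of 0.27 on the log2 scale was small but without overlap (SE 0.0479, edgeR adjusted p = 0.000763). Alcam, the ligand of CD6 on T cells, was at 34.3 ± 5.50 and 29.6 ± 1.07 CPM and was not called (n = 5, edgeR adjusted p = 0.106). Icam2 and Ceacam1 were too low to test. Icam2 had 8 and 26 summed counts, a ratio of 3.40 after scaling to the totals (exact 95% binomial interval 1.49 to 8.68), and Ceacam1 had 9 and 17 (ratio 1.97, 0.832 to 5.02). Intervals and floors cover counting error only.

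**Figure D4:**
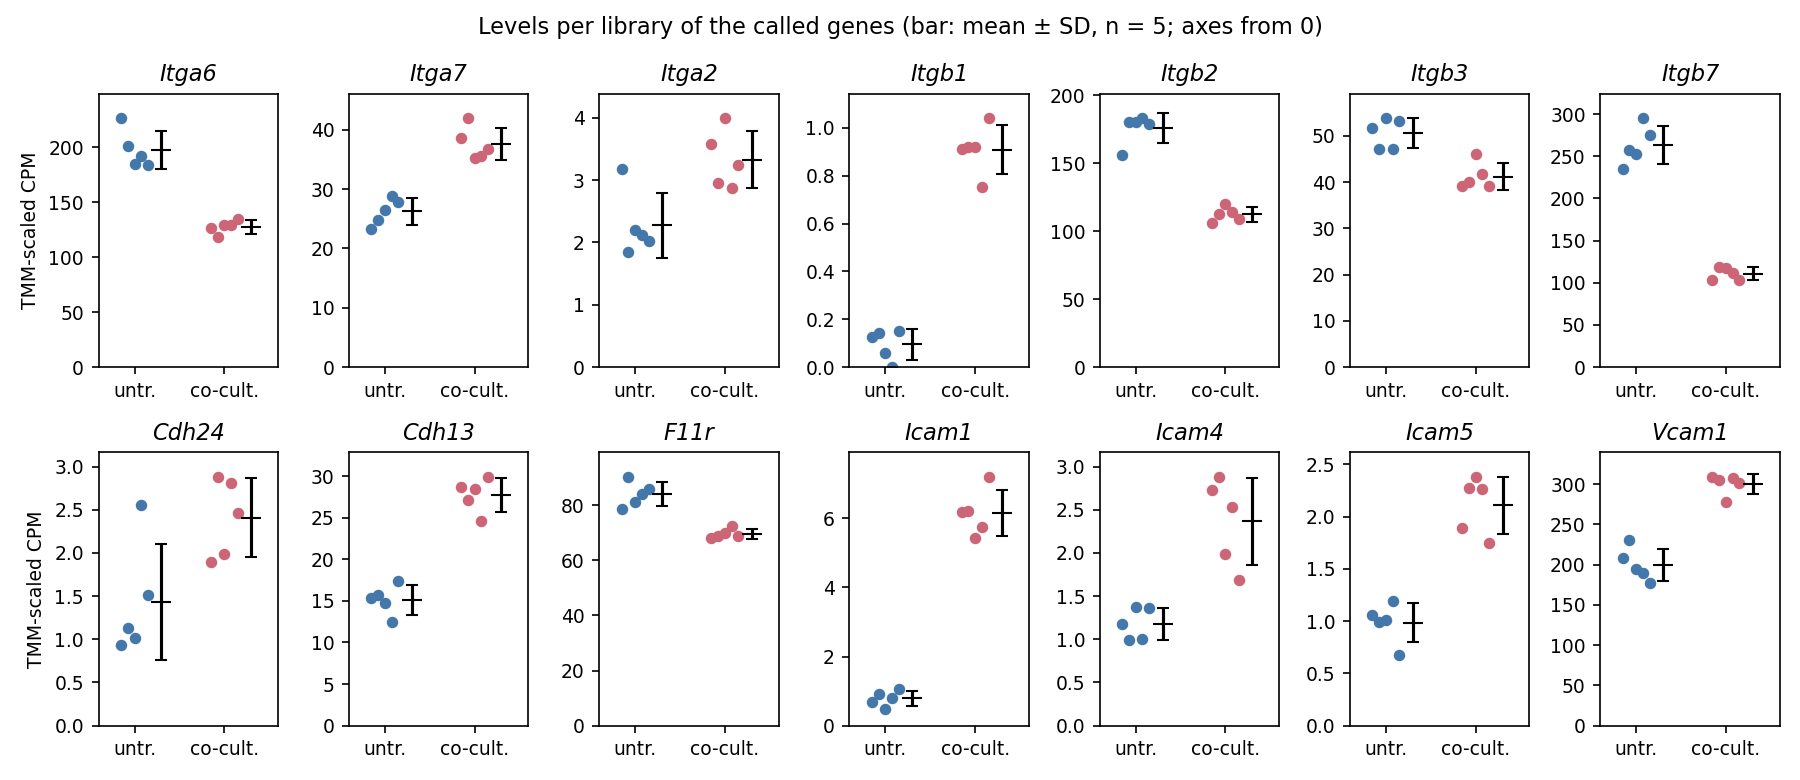
TMM-scaled CPM of the 14 called genes, with 1 point per library, the mean and SD (n = 5) beside the points, and axes that start at 0. Itga2 and Cdh24 are the genes whose groups overlap, and Itgb1 stays at or below 1.04 CPM.

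Most cadherin genes had few counts or none. Of 21, 15 were too low to test, and of the 6 tested, 2 rose, none fell and 4 did not pass. The called share of 33.3% stood beside 33.5% of all tested genes, 17.4% higher and 16.1% lower. Cdh13, T-cadherin, which is held by a lipid anchor in place of a cytoplasmic tail and binds adiponectin, was at 15.3, 15.7, 14.8, 12.4 and 17.4 CPM in untreated libraries. After co-culture it was at 28.7, 27.1, 28.4, 24.6 and 29.9 CPM, 1.84-fold higher with no overlap (log2 change 0.88 ± 0.0892 SE, adjusted p = 8.63e-06 with edgeR). Cdh24, a type II cadherin, was at 0.934, 1.13, 1.01, 2.56 and 1.51 CPM and at 1.89, 2.88, 1.99, 2.81 and 2.46 CPM. It rose by 0.75 ± 0.268 (SE, adjusted p = 0.0445 with edgeR) on the log2 scale. Dropping single libraries removed this call in 8 of 10 fits (edgeR adjusted p from 0.00256 to 0.109), and untreated replicate 4 lay inside the co-culture range.

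Cdh3, the placental cadherin, was at 0.945 ± 0.316 and 0.500 ± 0.243 CPM and was not called (n = 5, log2 change -0.93 ± 0.369 SE, adjusted p = 0.0687 with edgeR). Cdh5, the cadherin of endothelial cells, was at 3.50 ± 0.359 and 3.11 ± 0.577 CPM (n = 5, edgeR adjusted p = 0.42). The summed level of 7 endothelial markers was 18.6 to 20.5 CPM in untreated and 17.9 to 20.8 CPM in co-culture libraries, most of it from Egfl7, and Emcn and Cldn5 had 0 counts. Cdh26 was at 5.17 ± 0.867 and 5.56 ± 1.02 CPM and Cdh17, the liver-intestine cadherin, at 1.6 ± 0.25 and 1.41 ± 0.51 CPM, and neither was called (n = 5, edgeR adjusted p = 0.635 and 0.571).

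The 26 genes that were not tested had at most 74 counts over the 10 libraries, and 16 of them had fewer than 10. Itga8, Itgad and Cdh20 had 0 counts throughout. Over the summed libraries a count of 0 leaves room for levels of up to 0.0388 CPM (untreated) and 0.0405 CPM (co-culture). Itgal, the alpha chain of the T cell integrin that binds Icam1, had 3 and 18 summed counts (ratio 6.27, exact 95% binomial interval 1.83 to 33.2), spread as 0, 0, 0, 3 and 0 counts and as 2, 5, 0, 3 and 8 counts over the libraries. Itga4 had 1 and 5 summed counts, all 5 of the latter in co-culture replicate 1, and Itgae had 27 and 28. Of the other integrin genes, the summed counts in untreated and co-culture libraries were 0 and 4 for Itga9, 10 and 7 for Itga11, 15 and 13 for Itgb6 and 4 and 1 for Itgb8. Cdh11, the cadherin of mesenchymal cells, had 43 and 31 summed counts (ratio 0.753, interval 0.459 to 1.22). Cdh15, the cadherin of muscle, had 13 and 3 (ratio 0.241, interval 0.0441 to 0.877), Cdh9 had 12 and 2 (ratio 0.174, interval 0.0189 to 0.782), Cdh10 had 16 and 9, and Cdh18 had 9 and 0. These intervals were not adjusted for the number of genes examined. The other 9 cadherins with any count, Cdh4, Cdh6, Cdh7, Cdh8, Cdh12, Cdh16, Cdh19, Cdh22 and Cdh23, had at most 3 summed counts in a group.

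Other genes of the adhesion pathway were read from 4 lists, beside 17.4% of all tested genes called higher and 16.1% called lower. Of 36 integrin adaptor and focal adhesion genes, 33 were tested, 12 rose and 4 fell, with a median log2 fold change of 0.08. Without Fermt3, which passed the count filter through the co-culture libraries alone, 11 of 32 rose. With the replicate number as a block 1 fell. Tln1, the talin that activates integrins, rose from 564 ± 34.7 to 687 ± 25.4 CPM (n = 5), and Tns3, a tensin of focal adhesions, rose by 0.27 in log2 units (adjusted p = 0.000821 with edgeR). Fermt3, the kindlin of blood cells, rose from 0.364 ± 0.0972 to 1.63 ± 0.552 CPM (n = 5, adjusted p = 0.000164 with edgeR), together with some of the macrophage markers. Of 23 tested matrix ligands of integrins, 15 rose and 1 fell, with a median of 0.28. Without the laminin gene Lamb3, which passed through the co-culture libraries alone, 14 of 22 rose, with a median of 0.26. Thbs1, thrombospondin, rose by 1.72 and Tnc, tenascin C, by 0.77 on the log2 scale, and the integrin ligand osteopontin, Spp1, was the one that fell, from 1695 ± 151 to 504 ± 30.1 CPM (n = 5).

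The list of cadherin-associated genes held the catenins that tie cadherins to actin, the adaptor afadin (Mllt4) and the beta-catenin inhibitor Ctnnbip1. None of the 6 tested rose and 2 fell, the log2 levels of Jup by 0.17 and of Ctnnb1 by 0.16 (adjusted p = 0.0241 and 0.0411 with edgeR). Neither passed with library totals as the scaling (edgeR adjusted p = 0.0612 and 0.101), with limma on FPKM or with the replicate number as a block. Of 21 other tested cell-cell adhesion genes, 5 rose and 3 fell, with a median of -0.01. Without Madcam1, which passed through the co-culture libraries alone, 4 of 20 rose. Cd47, an integrin-associated protein and the ligand of the macrophage receptor SIRP-alpha, fell from 254 ± 14.9 to 184 ± 5.31 CPM (n = 5). Madcam1, the ligand of the alpha4-beta7 integrin, rose from 0.369 ± 0.148 to 1.48 ± 0.339 CPM (n = 5), and the nectin gene Pvrl1 fell by 0.31 in log2 units (adjusted p = 0.00157 with edgeR).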

How the data were processed

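RNA sequencing of 10 libraries labelled Hepa1-6 was used, 5 untreated and 5 after co-culture. Per the submitters' processing notes, the authors used the build mm10, with RSEM 1.2.8, Bowtie2 2.2.5 and HISAT2 2.1.0 listed as tools without roles. No source used here gives the annotation release or the strand setting. The deposited counts are whole numbers and not normalized, per the file headers and values. The deposited FPKM are the same counts divided by 1 length per gene and the library total (the implied length varied by at most 0.00104% between libraries in genes with many counts). Positions are as deposited, and 35 of the 53 genes had the same position in GENCODE M21.

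Counts were tested with edgeR 4.0.16 in R 4.3.3 (filterByExpr, TMM, two-sided quasi-likelihood F test, no block), adjusted over 12666 genes. The SE of a fold change is its size over the root of F. The fit was checked on simulated counts. Alternatives used DESeq2 1.42.0, limma 3.58.1 on log2(FPKM + 1) and log2(FPKM + 0.1), other scalings and filters, a replicate block and 1 library left out.

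The 20 pairs of libraries within groups differed beyond sampling noise (chi-square per degree of freedom 6.67 to 15.1). This spread may be technical and does not show separate cultures. All 10 libraries were treated as replicates in the fits. A floor of 3 counts in a library equals 0.175 to 0.232 CPM. The genes and the lists were chosen with earlier results of these data known. Every called member is named with its library values, other tested members with group values, untested members with summed counts or a range, and of each pathway list the 3 called genes with the smallest p (2 catenins). Other list and marker genes were picked for naming with their values in view. 7 list symbols were matched to older symbols by Ensembl identifier. 35 of the 53 genes matched a RefSeq promoter.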

Additional observations from a re-analysis of the deposited data

Results flagged for a closer look

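In 3 of the 54 groups of 5 libraries examined (27 tested genes in both groups), 1 library stood apart from the others, by a gap to its neighbour of more than 0.71 of the range in the group. Chance gives about 1 in 20 groups. Itga2 in untreated replicate 1 was at 3.18 CPM, with the next library at 2.2. Itgb2 in untreated replicate 1 was at 156 CPM, with the next at 179, and still lay above all co-culture libraries. Vcam1 in co-culture replicate 3 was at 278 CPM, with the next at 301, and still lay above all untreated libraries. Without untreated replicate 1 the log2 fold change of Itga2 was 0.68 (edgeR adjusted p = 0.00576).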

How the results depend on the processing

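The counts of genes called, 9 higher and 5 lower among the integrin, cadherin and ligand genes and 2204 and 2044 over all tested genes, stayed within 1.5 times under each alternative run. With 1 library left out, 7 to 9 of these genes were called higher and 5 to 6 lower, and over all genes 1849 to 2128 and 1813 to 2093. The replicate numbers did not pair the libraries (correlations of deviations from the group means -0.173 to 0.079, and 2 of 10 libraries correlated best with their own number). With the replicate number as a block, 9 and 5 of these genes and 1762 and 1625 of all genes were called. Library totals alone gave 12 and 5, and 2648 and 1743. Of the values of single member genes under alternatives, 457 kept their call, 16 lost it and 11 gained it, and none of the called genes changed sign. The losses were in Cdh24 and Itga2, and the gains in Itga5, Itgav, Itga10, Alcam and Cdh3. Among the lists, the integrin adaptor and focal adhesion genes that fell numbered 1 to 4 (1 with the block). The cadherin-associated genes that fell numbered 0 to 2 and the other adhesion genes that fell 3 to 5 (5 without untreated replicate 1). Itgb1 was not tested when a mean of at least 1 CPM was required. Depth limits the 26 untested genes, for which differences were not detectable by the test at these counts.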
